A study of Mus musculus with 10 samples.

Results

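The 10 neuropeptide precursor genes Penk, Tac1, Pdyn, Sst, Npy, Vip, Cck, Crh, Cort and Nts were followed in the cerebellum and cortex of Snx14-KO and control mice. They were picked out by gene symbol from the 55536 mouse genes in each count table, as a family that was chosen with earlier results of these data known. Penk, Tac1 and Pdyn were treated as 3 striatal precursors, since projection neurons of the striatum are rich in them, and the other 7 as interneuron precursors.

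RNA was sequenced from bulk tissue of 5 mice at 1 year of age, and each mouse gave 1 cerebellum and 1 cortex library. Controls 1 and 2 were heterozygous (Het) and control 3 was wild type (WT) for the Snx14 deletion, and KO 1 and KO 2 carried it on both alleles. The deletion is a germline frameshift of a single base made with Cas9 in C57BL/6J embryos, so Snx14 is disrupted in all cells of the KO mice and on 1 allele of the Het controls, and all KO mice descend from a single edited allele. The comparisons asked which precursor mRNAs differ between KO and control mice in each tissue, and which differ between the tissues.

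Neuropeptides are cut from larger precursor proteins by proprotein convertases inside dense-core vesicles and act on G protein-coupled receptors. In the striatum, enkephalin (Penk) marks the indirect pathway, and substance P (Tac1) and dynorphin (Pdyn) mark the direct pathway. In the cortex, Sst, Vip, Cck and Npy mark classes of GABAergic interneurons, although Cck and Penk mRNA are also found in other neurons. In the cerebellum, where peptides are scarcer, enkephalin has been described in Golgi cells.

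Positions are given on GRCm38, strand in brackets, and span the whole annotated gene, exons and introns included. Penk (ENSMUSG00000045573.9, the enkephalin precursor) lies at chr4:4133531-4138819 (-), Tac1 (substance P and neurokinin A) at chr6:7554879-7565834 (+) and Pdyn (dynorphins) at chr2:129686565-129699844 (-). Of the interneuron precursors, Sst (somatostatin) lies at chr16:23889573-23890958 (-), Cort (cortistatin, a somatostatin relative) at chr4:149125034-149126763 (-), Npy (neuropeptide Y, ENSMUSG00000029819.6) at chr6:49822710-49829507 (+) and Vip (vasoactive intestinal peptide) at chr10:5639218-5647617 (+). Cck (cholecystokinin) lies at chr9:121489824-121495694 (-), Crh (corticotropin-releasing hormone) at chr3:19693401-19695396 (-) and Nts (neurotensin) at chr10:102481756-102490486 (-). For Penk, 14.3% of the exonic bases are shared with the gene A830012C17Rik, whose reads cannot be told apart from those of Penk there, and the other 9 members share none.

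RefSeq promoter sequences were matched for 8 of the 10 members, not for Penk and Crh. Pdyn had 2, which were both searched and held none of the motifs, and the upstream one is shown. The 5 shown are those of Tac1 and Pdyn, whose mRNA was lower in both KO cortices, of Cck and Npy, whose mRNA fell in KO cerebellum, and of Sst, which alone held the full cAMP response element (CRE). Each is the 250 bases before the RefSeq start site, 5′ to 3′ on the gene's own strand, GRCm38.p6, at chr6:7554811-7555060 (+ strand), chr2:129699939-129700188 (- strand), chr16:23890845-23891094 (- strand), chr6:49822460-49822709 (+ strand) and chr9:121495695-121495944 (- strand) in turn. The RefSeq start site is not always the end of the gene span given above. The windows of Tac1 and Sst reach into that span, and that of Pdyn stops short of it. Capitals mark TGACG on either strand (written CGTCA where it lies on the other strand), the core of a CRE, and TGACGTCA, the full palindrome, which holds both.
Tac1: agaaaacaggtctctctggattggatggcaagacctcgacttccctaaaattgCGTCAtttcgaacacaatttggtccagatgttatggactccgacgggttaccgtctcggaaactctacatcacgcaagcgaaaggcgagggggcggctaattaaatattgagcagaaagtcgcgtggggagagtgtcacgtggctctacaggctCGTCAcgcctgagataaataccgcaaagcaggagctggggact
Pdyn: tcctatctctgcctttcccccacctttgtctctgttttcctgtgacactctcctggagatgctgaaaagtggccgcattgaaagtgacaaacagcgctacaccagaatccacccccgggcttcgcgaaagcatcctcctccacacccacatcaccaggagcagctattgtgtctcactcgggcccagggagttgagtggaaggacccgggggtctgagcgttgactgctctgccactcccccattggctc
Sst: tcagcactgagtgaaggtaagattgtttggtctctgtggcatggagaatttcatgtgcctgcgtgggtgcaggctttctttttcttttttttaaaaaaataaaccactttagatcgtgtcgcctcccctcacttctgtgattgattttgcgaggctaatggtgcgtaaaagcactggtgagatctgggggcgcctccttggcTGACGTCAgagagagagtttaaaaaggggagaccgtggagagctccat
Npy: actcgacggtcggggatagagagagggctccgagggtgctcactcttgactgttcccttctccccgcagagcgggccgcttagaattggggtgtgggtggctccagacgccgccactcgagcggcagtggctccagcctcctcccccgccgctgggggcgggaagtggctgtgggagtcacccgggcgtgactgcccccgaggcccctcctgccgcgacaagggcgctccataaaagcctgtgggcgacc
Cck: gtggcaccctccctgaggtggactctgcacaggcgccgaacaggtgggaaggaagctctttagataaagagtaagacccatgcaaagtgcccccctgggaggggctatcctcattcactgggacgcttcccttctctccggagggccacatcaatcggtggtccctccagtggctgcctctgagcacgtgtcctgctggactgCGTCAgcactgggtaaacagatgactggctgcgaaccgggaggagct
The full palindrome was found in the window of Sst alone among the 8 members, 48 bases before the start site, and 1.55% of all 32851 promoters of this length held it. The CRE core was found in 6 of the 8, namely Tac1, Sst, Vip, Cck, Cort and Nts, against 17.8% of all promoters. TATAAA, searched on the gene's own strand, was found in the Vip window alone, against 7.59% of all promoters. Of the 2 members called lower in KO cerebellum, Cck held the CRE core, 47 bases before its start site and Npy did not.

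Libraries held 16088310 to 22975355 gene counts. Summed markers set the tissues apart, with 12 granule cell genes at 5145 to 6019 counts-per-million (CPM) units in cerebellum and 229 to 281 CPM in cortex. Snx14 was lower in both KO mice than in all controls in each tissue (cerebellum 15.5 and 17.4 CPM against 39.9 to 73.3; cortex 14.8 and 16.1 against 34.4 to 50.9), and WT control 3 was above both Het controls. The labels give no sex, but Xist and Ddx3y, chosen after their values were seen, marked control 2 and KO 2 as the male of each group in both tissues. The cortex library of control 2 stood apart, with a mean absolute log2 difference of 0.264 from the median of the other cortex libraries, against 0.14 to 0.151 for the rest. Its 16 cortical excitatory neuron markers summed to 3592 CPM against 6119 to 6761, and its 10 oligodendrocyte markers to 9309 CPM against 5046 to 5520. In cerebellum, 11 choroid plexus markers summed to 69.4 CPM in KO 1 and to 1223 to 3502 CPM in the other libraries, and 18 brainstem markers to 87.6 CPM in KO 2 and to 42.5 to 57.2 CPM in the others.

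Every one of the 10 precursors was lower in control cerebellum than in control cortex, and the size of the fitted gap ranged from 3.22-fold for Penk to 377-fold for Vip. Vip and Pdyn were the most restricted to cortex, Tac1 and Sst came next, and Penk and Nts differed least. All 10 were tested and called lower (adjusted p under 0.05 and an absolute log2 change over 0.5 in the quasi-likelihood test of edgeR over all tested genes, as for every call here except that the difference of KO effects between tissues needed the adjusted p alone), against 21.5% of the 19416 tested genes. In every alternative fit the 10 calls held. Of all genes, 4171 were called lower and 3700 higher in cerebellum with TMM scaling, and 3630 lower and 4610 higher when libraries were scaled by their totals alone.

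Among the striatal precursors, Penk was at 123, 127 and 120 CPM in the cerebellum of controls 1, 2 and 3 and at 271, 654 and 259 CPM in their cortex. Cortex was higher in each mouse, most in control 2 (log2 cerebellum against cortex -1.69, SE 0.325, adjusted p = 0.00233). Tac1 was at 0.467, 0.787 and 0.712 CPM in cerebellum and at 49.9, 114 and 48.9 CPM in cortex (log2 -6.75, SE 0.461, adjusted p = 4.76e-06). Pdyn was at 0.187, 0.139 and 0.153 CPM in cerebellum, which is 10 counts over the 3 libraries, and at 38.6, 66.6 and 41.0 CPM in cortex. The 2 direct-pathway precursors were thus nearly confined to the cortex libraries, whereas Penk was abundant in both tissues. By total counts Pdyn was 290-fold higher in cortex (95% exact interval 158 to 606, which covers counting error only, as do all intervals here).

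Of the interneuron precursors, Vip had 4, 0 and 2 counts in the cerebellum of controls 1, 2 and 3 and 49.7, 27.98 and 37.7 CPM in their cortex, a ratio of 367 (interval 168 to 1002). Sst was at 2.94, 1.25 and 1.98 CPM in cerebellum and at 179, 196 and 166 CPM in cortex (log2 -6.45, SE 0.222, adjusted p = 1.13e-07). Cort and Crh were low in both tissues. Cort had 2, 1 and 5 counts in cerebellum against 3.13 to 3.903 CPM in cortex, a ratio of 25.97 (12.9 to 61.0), and Crh had 3, 1 and 12 counts against 4.41 to 7.50 CPM, a ratio of 22.7 (13.7 to 40.1). Cck and Npy kept a substantial level in cerebellum. Cck was at 35.7, 34.8 and 32.3 CPM there and at 255, 249 and 282 CPM in cortex (log2 -2.94, SE 0.0867, adjusted p = 5.08e-08), and Npy was at 12.1, 13.1 and 13.4 CPM and at 66.9, 84.2 and 63.3 CPM (log2 -2.48, SE 0.124, adjusted p = 7.65e-07). Nts was low in both, at 0.607 to 0.814 CPM in cerebellum and 1.84 to 3.72 CPM in cortex (log2 -1.94, SE 0.321, adjusted p = 0.000977).

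**Figure D1:**
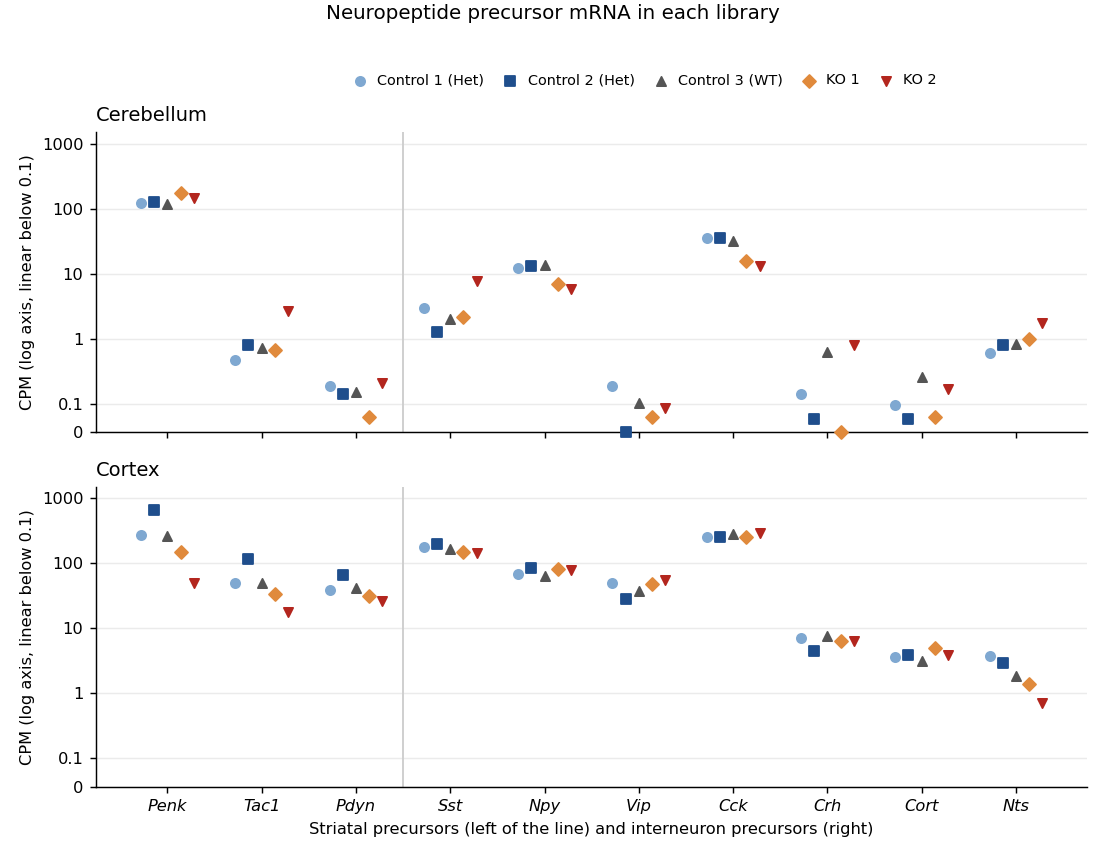
Level of each precursor in CPM (y axis, log scale above 0.1) in every library, cerebellum above and cortex below, with 1 symbol per mouse. The striatal precursors Penk, Tac1 and Pdyn of KO 1 and KO 2 (149 and 49.6 CPM for Penk) lie below all controls in cortex, and Cck and Npy of both lie below all controls in cerebellum.

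Levels were compared between genes per length, as CPM per kb of exon. In control cerebellum the order ran Penk (75.4 ± 2.2 CPM per kb, SD, n = 3), Cck (26.3 ± 1.3), Npy (22.7 ± 1.2), Sst (2.86 ± 1.2), Nts (0.59 ± 0.09), and then Crh, Cort, Tac1, Pdyn and Vip, all at 0.201 CPM per kb or less. The ranges of the first 5 neighbours did not overlap, whereas those of Crh and Cort, of Cort and Tac1, and of Pdyn and Vip did. In control cortex Sst (250 ± 21), Penk (242 ± 138) and Cck (201 ± 13) led, followed by Npy (126 ± 20). The wide range of Penk overlapped with those of Sst and Cck, which did not overlap with each other. Tac1 (20.8 ± 11), Pdyn (16.9 ± 5.4) and Vip (11.3 ± 3.2) formed a middle band in which neighbours overlapped, and Cort, Crh and Nts were lowest at 5.24, 4.81 and 2.27 CPM per kb. In KO cortex Penk was at rank 4, against rank 2 in the controls, and Cck led, at 209 ± 21 CPM per kb (n = 2), overlapping with Sst at 201 ± 7.6.

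**Figure D2:**
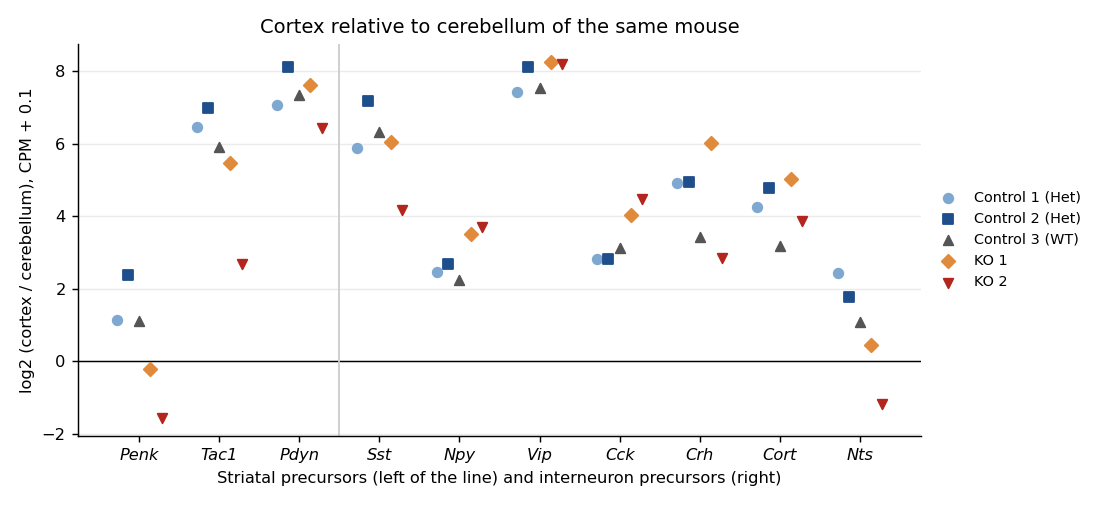
Log2 ratio of cortex to cerebellum within each mouse (y axis, on CPM plus 0.1) for the 10 precursors, with 1 symbol per mouse. Penk was higher in cortex in the 3 controls (1.11 to 2.37) and lower in cortex in KO 1 (-0.22) and KO 2 (-1.57), and the Cck ratio was larger in the KO mice (4.03 and 4.48) than in controls (2.83 to 3.12).

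The receptors followed the same direction between tissues. Of 26 receptor genes of these peptides, 21 were tested in control tissue, 16 were called lower in cerebellum and 2 higher, with a median log2 of -3.55 against 0.0168 for all tested genes. Cckbr, the cholecystokinin receptor of the brain, had a log2 of -5.69 (SE 0.24), Sstr2 -6.05 (SE 0.292) and Ntsr1 -6.72 (SE 0.299), whereas Crhr1, the main receptor of corticotropin-releasing hormone, was higher in cerebellum (log2 1.497, SE 0.2, adjusted p = 0.000277). Of 41 other neuropeptide precursors, 19 were tested, 10 were called lower and 1 higher. Of 24 genes of peptide processing and dense-core vesicles, 11 were called lower, among them the convertase gene Pcsk2 (log2 -1.94, SE 0.0806), and 5 higher, among them the convertase gene Pcsk6 (log2 2.5, SE 0.0872). Crhbp, which encodes the binding protein of corticotropin-releasing hormone, was also lower in cerebellum (log2 -6.49, SE 0.238). Of the 14 genes of peptide binding and degradation 3 were called lower and 2 higher. Over all tested genes, 21.5% were called lower and 19.1% higher, and the binding and degrading genes did not exceed these shares.

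In Snx14-KO cerebellum, Cck and Npy fell, while the other precursors did not pass the test. Cck was at 35.7, 34.8 and 32.3 CPM in the controls and at 15.4 and 13.0 CPM in KO 1 and KO 2. Npy was at 12.1, 13.1 and 13.4 CPM in the controls against 6.92 and 5.84 CPM in the KO mice. For each gene the groups were far apart, with every KO library below every control. The fitted change of Cck was -1.28 on the log2 scale (SE 0.11, adjusted p = 0.00104), 2.43-fold lower, and that of Npy was -1.02 (SE 0.145, adjusted p = 0.0107), 2.03-fold lower. These 2 of the 7 tested members were called, against 1.55% of the 19447 tested genes, or 1.04% in the lower direction. The call of Cck held in every alternative, but that of Npy was lost without control 1 (adjusted p = 0.0548), without control 3 (0.0587), without KO 2 (0.0665) and with the mouse number as a block (0.0981).

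Genes whose mRNA moved most like Cck over the 10 libraries, by root mean square distance of log2 levels centred on each tissue's control mean, were Icmt (distance 0.0926), Kcnip1 (0.102) and Cep76 (0.109), out of 16148 genes with at least 1 CPM in both tissues. Those most like Npy were Garnl3 (0.138), Inpp5a (0.141) and Pet100 (0.151). Markers of Purkinje cells, the output neurons of the cerebellar cortex, were lower in the same KO libraries, and those of astrocytes were higher. The 24 genes of that list, none at 0 in cerebellum, summed to 14344 to 16655 CPM in the controls and to 9291 and 9742 CPM in the KO mice. Of the 24, 16 were called lower and none higher, with a median log2 of -0.76, among them Ppp1r17 (-1.28, SE 0.0652) and Kcnip1 (-1.29, SE 0.0763). The 11 astrocyte genes, none at 0, summed to 5155 to 5696 CPM in the controls and to 6162 and 6504 CPM in the KO mice. Of the 11, 4 were called higher and none lower, with a median log2 of 0.40, among them Gfap (1.30, SE 0.0856) and Agt (1.39, SE 0.11). Over all tested genes, 0.514% were called higher and 1.04% lower. The part of either cell type in the change of Cck and Npy was not tested, and in bulk tissue fewer cells of a type and less RNA per cell cannot be told apart.

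**Figure D3:**
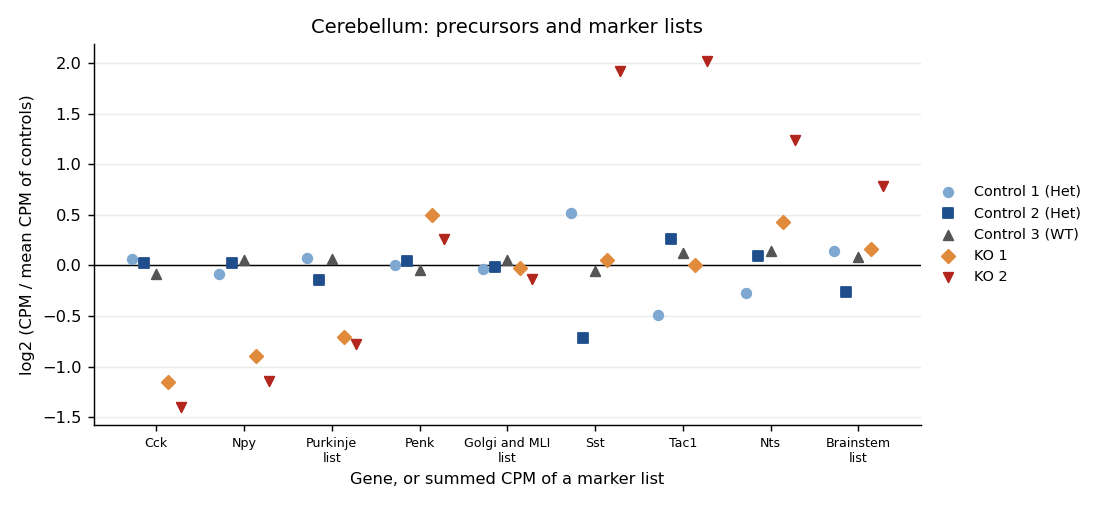
Cerebellum level of precursors and of summed marker lists relative to the control mean (y axis, log2), with 1 symbol per mouse (MLI, molecular layer interneurons). Cck, Npy and the Purkinje list (9291 and 9742 CPM) of both KO mice lie below all controls, with Cck and Npy lower than the summed list in each KO mouse. Within the list (median fitted log2 change -0.76), Ppp1r17 (-1.28) and Kcnip1 (-1.29) fell as far as Cck (-1.28). Sst, Tac1, Nts and the brainstem list are highest in KO 2.

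Penk, the most abundant precursor of the cerebellum, was at 123, 127 and 120 CPM in the controls and at 174 and 147 CPM in KO 1 and KO 2. Both KO libraries were above all controls, as were those of 15.5% of tested genes, and the change of 0.37 on the log2 scale (SE 0.0772, adjusted p = 0.0519) was not called. The 14 Golgi cell and molecular layer interneuron markers summed to 1559 and 1681 CPM in the KO mice and 1665 to 1771 CPM in the controls, with 0 of 14 called. In contrast to the sum, 13 of the 14 had a positive log2 change (median 0.23), and Lgi2 (0.47, SE 0.0899, adjusted p = 0.0367) missed only the minimum fold. Leaving out each mouse in turn gave changes of Penk between 0.26 and 0.48.

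The remaining members of the cerebellum had few counts, and most were highest in KO 2. Tac1 was at 0.467, 0.787 and 0.712 CPM in controls, 0.659 CPM in KO 1 and 2.65 CPM in KO 2. Sst was at 2.94, 1.25 and 1.98 CPM in controls, 2.14 CPM in KO 1 and 7.79 CPM in KO 2. In both genes KO 1 lay within the controls and KO 2 far above them, so the fitted changes of 1.36 (SE 0.548, adjusted p = 0.326) and 1.28 (SE 0.508, adjusted p = 0.318) went to -0.0042 and 0.044 without KO 2. Nts was at 0.607, 0.787 and 0.814 CPM in controls against 0.989 and 1.74 CPM in the KO mice, above the controls in both (log2 0.90, SE 0.366, adjusted p = 0.332). Crh had 3, 1 and 12 counts in controls, 0 in KO 1, which allows up to 3 counts, and 19 in KO 2. Beside these genes, the 18 brainstem markers were also highest in KO 2, at 87.6 CPM against 42.5 to 57.2 CPM in the other 4 libraries. Only 3 of the 18 reached the count minimum in cerebellum (Dbh, Slc6a5 and Th), and Slc6a5 is also on the Golgi cell list. KO 2 was highest as well for the oligodendrocyte, endothelium and fibroblast, thalamus and hippocampus lists. It was not highest for the remaining region and cell type lists. The part of any such tissue or cell type in these genes was not tested. Pdyn, Vip and Cort did not reach the count minimum in cerebellum. They had 1 and 5, 1 and 2, and 1 and 4 counts in KO 1 and KO 2, against 3 to 4, 0 to 4 and 1 to 5 in the controls, and a difference was not detectable at this depth (KO over control ratios of 0.896, interval 0.268 to 2.72, of 0.747, 0.121 to 3.50, and of 0.933, 0.24 to 3.24).

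Few genes of peptide processing and reception passed the test in KO cerebellum. Of the 24 processing and vesicle genes, Pcsk6 (log2 -0.60, SE 0.0798, adjusted p = 0.00777) and Pcsk1 (-0.78, SE 0.16, adjusted p = 0.0491), both convertase genes, were called lower and none higher, with a list median of 0.06. Over all tested genes, 1.04% were called lower. Of the receptors, 0 of 14 tested were called, the nearest being Adcyap1r1 (0.28, SE 0.0703, adjusted p = 0.105) and Ntsr2 (0.19, SE 0.0639, adjusted p = 0.237). Of the other precursors, 0 of 16 tested were called. Pomc, the precursor of melanocortins, had the smallest p among them (log2 2.52, SE 0.688, adjusted p = 0.135), followed by Apln (0.49, SE 0.144, adjusted p = 0.163). Of the genes of peptide binding and degradation, 0 of 13 tested were called, the nearest being Dpp10 (-1.03, SE 0.259, adjusted p = 0.105).

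In KO cortex no member passed the test, yet the members divided into 2 sets by where the KO libraries lay. Penk, Tac1, Pdyn, Nts and Sst were lower in both KO mice than in all 3 controls, while Npy, Vip, Cck, Crh and Cort overlapped. All 10 were tested and 0 were called by edgeR or DESeq2, against 0.00% of the 19202 tested genes with edgeR and 0.234% with DESeq2. At an unadjusted p under 0.05 the count was 5 of 10 against 5.93% of tested genes, and these 5 are the genes named above. KO libraries below all controls were found for 14.2% of tested genes.

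Penk was at 271, 654 and 259 CPM in the cortex of controls 1, 2 and 3 and at 149 and 49.6 CPM in KO 1 and KO 2 (log2 -1.98, SE 0.563, adjusted p = 0.754 by edgeR). Tac1 was at 49.9, 114 and 48.9 CPM in controls against 33.7 and 17.4 CPM in the KO mice (-1.45, SE 0.436, adjusted p = 0.754). Pdyn was at 38.6, 66.6 and 41.0 CPM and at 30.8 and 26.4 CPM (-0.76, SE 0.24, adjusted p = 0.768). All 3 had control 2 highest, KO 1 next to lowest and KO 2 lowest, and the size of the change shrank from Penk to Pdyn. Without control 2 the changes were -1.39 for Penk (adjusted p = 0.0503), -0.92 for Tac1 (0.0522) and -0.46 for Pdyn (0.0728). Together the 3 summed to 360, 835 and 349 CPM in the controls and to 213 and 93.4 CPM in the KO mice.

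Markers of the striatum varied alongside these 3 precursors in the cortex libraries. The 28 genes of the striatum list, which holds none of the precursors, summed to 3535, 7220 and 3256 CPM in controls 1, 2 and 3 and to 2146 and 1357 CPM in KO 1 and KO 2, in the same order as Penk, and none of the 28 was at 0 in all libraries of a cortex group. Of the 27 tested, all 27 had a negative log2 change and both KO libraries below all controls, 26 had an unadjusted p under 0.05, and the median change was -1.67 against 0.00122 for all tested genes. None of the 27 was called by edgeR, the nearest being Isl1 (-2.64, SE 0.572) and Cd4 (-2.15, SE 0.499), both at an adjusted p of 0.754. DESeq2 called 3 of the 27 lower, against 0.234% of all tested genes called. With no filter on low counts 26 of 28 were called lower, against 1.09% of all tested genes called. That fit took the spread between mice wholly from the trend over genes, not from each gene's own spread. Scaling by library totals and the mouse number as a block each called 0 of 27. When control 2 was left out, 18 were called lower, against 0.517% of all tested genes called, with a list median of -1.04. Relative to the summed list, Tac1 stood at 1.41%, 1.58% and 1.502% in the controls and 1.57% and 1.28% in the KO mice, and Pdyn at 1.09%, 0.922% and 1.26% against 1.44% and 1.94%. Penk stood at 7.67%, 9.06% and 7.95% in controls and at 6.93% and 3.65% in the KO mice. Scaled this way, Tac1 of KO 1 lay within the control range and Tac1 of KO 2 just under it. Pdyn of both KO mice lay above its control range, and Penk of both lay below its own, that of KO 2 by the largest margin. The Penk margin holds against the sum, not against each gene of the list. Relative to the control mean, the sum stood at a log2 of -1.12 and -1.78 in KO 1 and KO 2, and Penk at -1.41 and -2.99. Syndig1l (-1.34 and -3) and Rgs9 (-1.48 and -2.40) also fell further than the sum. Both were picked as the list genes most like Penk over these same libraries, so their likeness to it was set by the choice. Their values are centred on the mean log2 level of the controls. How much striatal tissue each cortex sample held is not recorded in the labels, and its part in these levels was not tested.

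**Figure D4:**
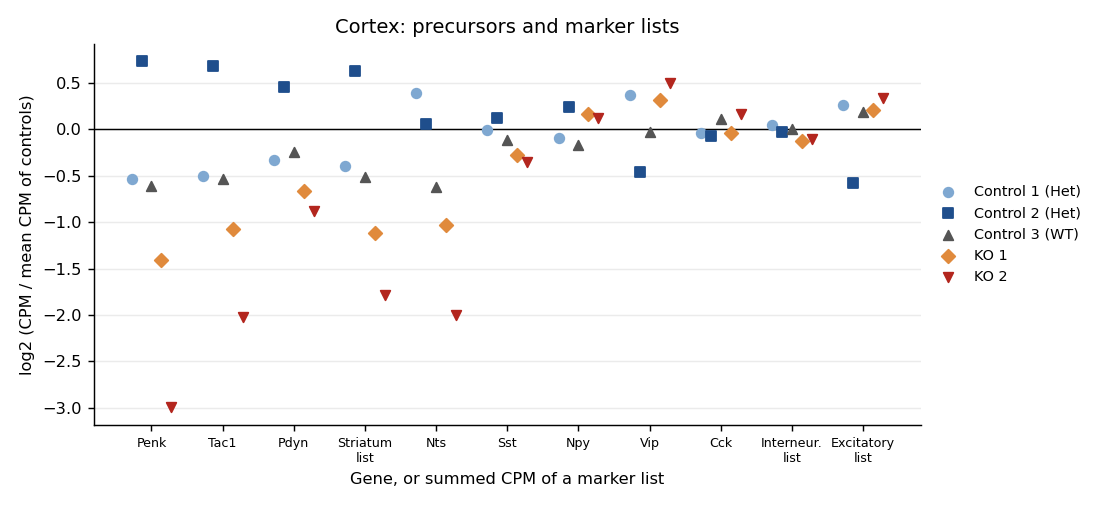
Cortex level of precursors and of summed marker lists relative to the control mean (y axis, log2), with 1 symbol per mouse. Penk, Tac1, Pdyn and the striatum list (7220 CPM in control 2, 1357 CPM in KO 2) are each highest in control 2 and lowest in KO 1 and KO 2, whereas Npy, Vip and Cck of the KO mice overlap with the controls.

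The genes closest to Penk over the 10 libraries were A830012C17Rik (distance 0.09), which shares exonic bases with Penk and so is no separate measurement, Syndig1l (0.153) and Rgs9 (0.283), the last 2 being genes of the striatum list. Those closest to Tac1 were Gpr139 (0.417), Necab2 (0.426) and Lpl (0.431), and to Pdyn Gm28006 (0.16), Tmem54 (0.168) and Pcp4l1 (0.177). Among receptors in KO cortex 0 of 22 tested were called. The nearest were Tacr1, the receptor of substance P (log2 -1.69, SE 0.456, adjusted p = 0.754), and Oprk1, the receptor of dynorphin (-0.64, SE 0.261, adjusted p = 0.829), both with KO libraries below all controls. Of the other precursors 0 of 20 tested were called, with Trh (-1.47, SE 0.521, adjusted p = 0.796) nearest, and of the processing and vesicle genes 0 of 24, with Scg2, a granin gene, nearest (-0.36, SE 0.0999, adjusted p = 0.754). Mme, which encodes the enkephalin-degrading enzyme neprilysin, had a log2 of -0.99 (SE 0.291, adjusted p = 0.754).

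The interneuron precursors of the cortex added up to nearly equal levels in both genotypes, at 565, 568 and 561 CPM in the controls and 543 and 576 CPM in the KO mice. Cck was at 255, 249 and 282 CPM in controls against 253 and 292 CPM in the KO mice (log2 0.07, SE 0.106, adjusted p = 0.935), and Npy at 66.9, 84.2 and 63.3 CPM against 80.1 and 77.9 CPM (0.16, SE 0.132, adjusted p = 0.9). Vip was at 49.7, 27.98 and 37.7 CPM in controls against 47.6 and 54.0 CPM in the KO mice (0.42, SE 0.211, adjusted p = 0.877), with control 2 lowest. Cort (3.13 to 3.903 against 3.79 and 4.92 CPM) and Crh (4.41 to 7.50 against 6.24 and 6.41 CPM) overlapped as well. Sst differed by a small amount, at 179, 196 and 166 CPM in controls against 149 and 141 CPM in the KO mice (-0.30, SE 0.103, adjusted p = 0.794), so both KO mice were below the controls, with a smaller log2 change than any striatal precursor. Nts, at 3.72, 2.94 and 1.84 CPM in controls and 1.38 and 0.707 CPM in the KO mice (-1.40, SE 0.416, adjusted p = 0.754), was the exception in size, at 11 to 62 counts a library. Relative to the summed striatum list, Nts of KO 1 and KO 2 (0.0644% and 0.0521%) lay within the control range (0.0407% to 0.105%). Sst, scaled likewise, lay above its own (6.94% and 10.4% against 2.71% to 5.09%). What lay behind the change of Nts was not tested.

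The 38 interneuron identity genes, such as the GABA transporter and synthesis genes, had 0 of 38 tested called in cortex, 21 below 0 and 17 above, and a median of -0.04. They summed to 2212 to 2331 CPM in controls and to 2071 and 2109 CPM in the KO mice. For 9 of them both KO libraries lay below all controls and for 3 above, against 14.2% and 10.5% of all tested genes. First among the 9 were Slc32a1 (-0.64, SE 0.138, adjusted p = 0.754) and Gad2 (-0.36, SE 0.0957, adjusted p = 0.754). Striatal projection neurons also use GABA, so Slc32a1 and Gad2 are not particular to interneurons. The part of either cell type in these levels was not tested. The genes closest to Vip over all libraries were Fzd4 (0.207), Gm9870 (0.231) and Gm45193 (0.232).

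**Figure D5:**
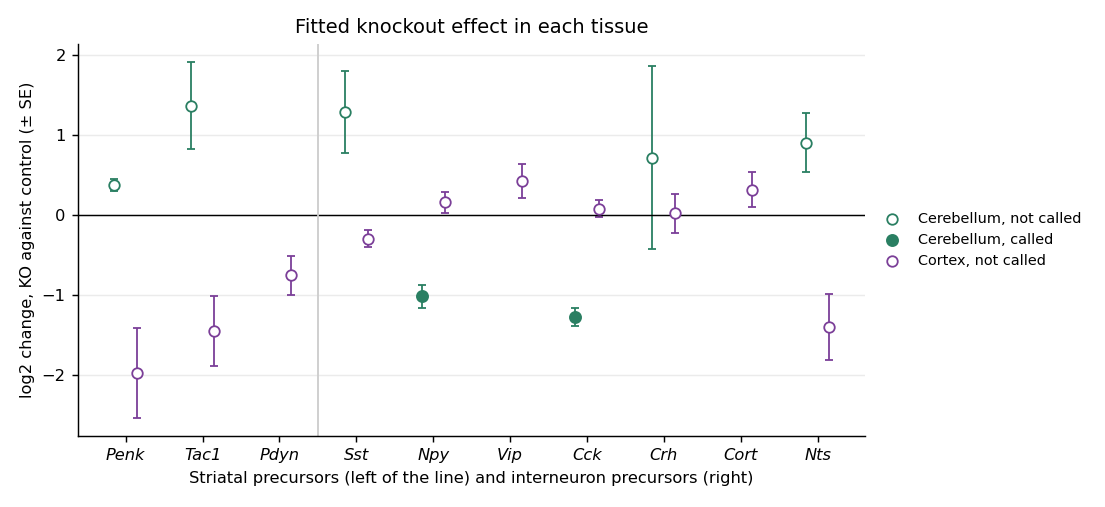
Fitted log2 change in KO against control mice with its SE (y axis) for each precursor in cerebellum and cortex, filled where called. Cck (-1.28) and Npy (-1.02) were called in cerebellum, no member was called in cortex, and Pdyn, Vip and Cort have no cerebellum value because they did not reach the count minimum.

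The KO effect on Cck differed between the tissues. Its change was -1.28 in cerebellum and 0.07 in cortex, and the difference of -1.33 (SE 0.143, adjusted p = 0.00583) was called, as was that of 0.102% of the 20614 genes tested for it. The call was lost when control 1 (adjusted p = 0.117), control 3 (0.0639), KO 1 (0.057) or KO 2 (0.311) was left out, each with both tissues, and its value stayed between -1.56 and -1.10. For Npy the difference was -1.16 (SE 0.185, adjusted p = 0.0552), and for Penk, which was above the controls in KO cerebellum and below them in KO cortex, it was 2.37 (SE 0.628, adjusted p = 0.251). Both tissues came from the same mice, and with the animal as a block both were called as well, Npy at -1.17 (adjusted p = 0.0108) and Penk at 2.41 (adjusted p = 0.0288), so that 3 of 10 members were called against 0.621% of genes. The differences for Tac1 (2.88, SE 0.875, adjusted p = 0.329), Nts (2.33, SE 0.573, adjusted p = 0.207) and Sst (1.64, SE 0.52, adjusted p = 0.358) did not pass in either fit, and the low counts of Pdyn, Vip, Crh and Cort in cerebellum left no difference detectable at this depth.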

How the data were processed

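RNA-seq of cerebellum and cortex was analysed in 10 libraries from 5 mice. Each library came as its own table of deposited counts, the unnormalized number of read pairs assigned to a gene. The authors trimmed the reads, used STAR for alignment to GRCm38 and assigned pairs to exons with featureCounts (Subread 2.0.1 per the labels). Multimapping reads were left out, pairs over several genes counted for all of them, and strand was ignored although the libraries were strand-specific, so overlapping and antisense genes share reads.

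Of 81881 entries, 55536 had a mouse gene identifier and were kept, named by GENCODE M21. The other 26345 held 0.16% to 0.926% of a library's counts.

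The counts were fitted in R 4.3.3 with edgeR 4.0.16 (TMM factors, filterByExpr with a count minimum of 10, quasi-likelihood F test, Benjamini-Hochberg adjustment over all tested genes). Calls needed an adjusted p under 0.05 and an absolute log2 change over 0.5, or, for the difference of the KO effects between tissues (all 10 libraries), the adjusted p alone. The 3 controls, 2 Het and 1 WT, were pooled as the labels do. Counts of replicates, which are separate mice, differed by more than counting noise (chi-square per degree of freedom 4.12 to 28.5). Printed CPM used TMM factors over all 10 libraries, intervals of count ratios are exact 95% binomial intervals, and SE is the log2 change over the square root of F. Tissues of the same mouse, paired by the animal numbers in the labels, deviated together (correlations of deviations from the group means 0.215 to 0.445), so the fit with the animal as a block is given where it changed a call.

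Alternatives were DESeq2 1.42.0, other scalings, no filter, no minimum fold, the replicate block and leaving out each mouse. The fits were tested on simulated data. Genes named were the members, Snx14, of each of 20 other lists at most 4 called or the 2 with the smallest p, receptors or binding proteins of members, and the 3 genes most alike to each of 7 members, of which those for Sst are not reported here. Members and lists were chosen with earlier results of these data known.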

Additional observations from a re-analysis of the deposited data

Results flagged for a closer look

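The KO effect on Cck differed between the tissues. The change in cerebellum minus that in cortex was -1.33 on the log2 scale (edgeR adjusted p = 0.00583), with both KO cerebella below all controls and the KO cortices overlapping with the controls. The call was lost in most fits that left out a mouse, while the difference stayed between -1.56 and -1.10.

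For Penk and Nts both KO libraries lay above all controls in cerebellum and below all controls in cortex. The difference of the changes was 2.37 for Penk (edgeR adjusted p = 0.251, and 0.0288 with the animal as a block) and 2.33 for Nts (edgeR adjusted p = 0.207).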

How the results depend on the processing

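The 10 calls between control tissues held in all alternatives. In cerebellum, 2 members were called by the reported test, 4 with no filter on low counts (Tac1 and Sst besides), and 1 to 2 when a mouse was left out. In cortex 0 were called by the reported test and 4 with no filter (Penk, Tac1, Pdyn and Nts). For the difference of the KO effects 1 was called by the reported test, 2 with DESeq2, 2 with RLE size factors, 6 with no filter, 3 with the animal as the replicate block, and 0 to 2 when a mouse was left out. With no filter, the shares of all tested genes called were 2.39% in cerebellum, 1.09% in cortex and 1.56% for the difference. Those unfiltered fits took the spread between mice wholly from the trend over genes (prior degrees of freedom infinite, against 4.64 to 5.41 in the reported fits). Their calls therefore do not rest on each gene's own spread. The cause of these moves was not tested.

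Counts over all genes moved too. The 302 genes called in cerebellum became 842 with no filter and 133 to 400 without a mouse. The 0 in cortex became 45 with DESeq2, 380 with no filter and 0 to 98 without a mouse. The 21 genes of the difference became 221 with DESeq2, 599 with no filter, 128 with the animal block and 0 to 198 without a mouse.

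The members whose sign turned when a mouse was left out were, in cerebellum, Tac1 (-0.0042 to 2.01) and Crh (-5.42 to 1.59), in cortex Crh (-0.19 to 0.15) and Cck (-0.027 to 0.16), and for the difference Crh (-5.34 to 2.00), Pdyn (-0.77 to 1.25) and Cort (-1.60 to 0.48). None of these 7 values was called.

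KO and control mice with the same number are different animals, and their deviations correlated at 0.002 and -0.053 in cerebellum and 0.077 and 0.136 in cortex, so the number was not taken as a pairing, although mouse 2 is the male of both groups by Xist and Ddx3y. A replicate block on it called 1 member (Cck, with Npy lost at an adjusted p of 0.0981) and 181 genes in cerebellum, and 0 members and 3 genes in cortex. The animal block changed no other call, and all 10 members stayed called between control tissues. Depth limits Pdyn, Vip, Crh and Cort in cerebellum, at 0 to 19 counts a library, and each group has only 2 or 3 mice.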
